A study of Macaca fascicularis with 2 samples.

Results

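The cells described here were cytotoxic T cells with a CD4 antibody tag and a low CD8 antibody tag. They were chosen by measured values. Each member had at least 1 *CD3E* UMI (unique molecular identifier, 1 captured molecule), at least 3 *GZMB* UMIs, no fewer *GZMB* than *GZMK* UMIs, at most 1 *FCER1G* UMI, no *CD79A* or *FOXP3* UMI, at least 144 CD4 tag UMIs and at most 418 CD8 tag UMIs. The rule selected 354 of 8830 kept cells, or 4.01% (95% Clopper-Pearson interval 3.61 to 4.44%). All 8830 came from 8953 deposited barcodes of untreated peripheral blood of 1 cynomolgus monkey (*Macaca fascicularis*), aged 10 years. CD4+ T cells were enriched with magnetic beads and CD8+ cells were enriched from these with a second bead kit, by which the study obtained double-positive (DP) T cells, those with both CD4 and CD8. One gene library and 1 surface tag library were made from the same cells, so there is no replicate animal and no test across animals. All intervals cover counting error only.

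CD4 T cells usually act as helpers, through cytokines and through CD40 ligand on their surface. Some that have met antigen many times take up the killing machinery better known from CD8 T cells and natural killer (NK) cells, namely granzymes and perforin held in granules, and are called CD4 cytotoxic T lymphocytes (CD4 CTLs). In macaques and humans, activated CD4 T cells can also carry CD8 on their surface, often as the CD8αα homodimer.

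The same gene gate held 1248 cells over all tag levels, of which the members were 28.4% (25.9 to 31.0%). The other cells used for comparison were 536 cells with the same gates and an intermediate CD8 tag of 419 to 999 UMIs, 163 CD8-bright CD4-positive cells above that window, and 181 CD8-bright cells with a CD4 tag below the limit. A further pair of groups shared the members' tag window. These were 87 GZMK-dominant cells, with at least 3 *GZMK* UMIs and more *GZMK* than *GZMB*, and 4103 granzyme-negative cells, with no UMI of either gene. Among T cells with the CD4 tag and the same exclusions, granzyme B cells made up 354 of 4613 in the low CD8 tag window (7.67%, 6.92 to 8.48%), 536 of 1709 in the intermediate window (31.4%, 29.2 to 33.6%) and 163 of 415 in the bright window (39.3%, 34.5 to 44.2%). The cytotoxic gate thus took a larger share of cells at higher CD8 tag, although the granzyme-negative cells made the low window the fullest.

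The members had a median of 3500 gene UMIs (752 to 9261) and of 1384 genes per cell. Median depth was 3645 gene UMIs in the intermediate cells, 5405 in the CD8-bright CD4-positive cells, 3250 in the CD8-bright CD4-low cells, 3380 in the GZMK-dominant cells and 2866 in the granzyme-negative cells. The part of this difference in the comparisons below was not tested. The CD8 tag of the members had a median of 310 UMIs (106 to 418), against 217 in the granzyme-negative cells and 203 in 103 B cells of the same library. The CD4 tag had a median of 333.5 UMIs in the members, 421 in the granzyme-negative cells and 138 in the B cells. The rule set the CD8 tag of the members below that of the other cytotoxic cells. Beside the granzyme-negative cells, which share the same tag window, their median CD8 tag was higher and their median CD4 tag lower.

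**Figure D1:**
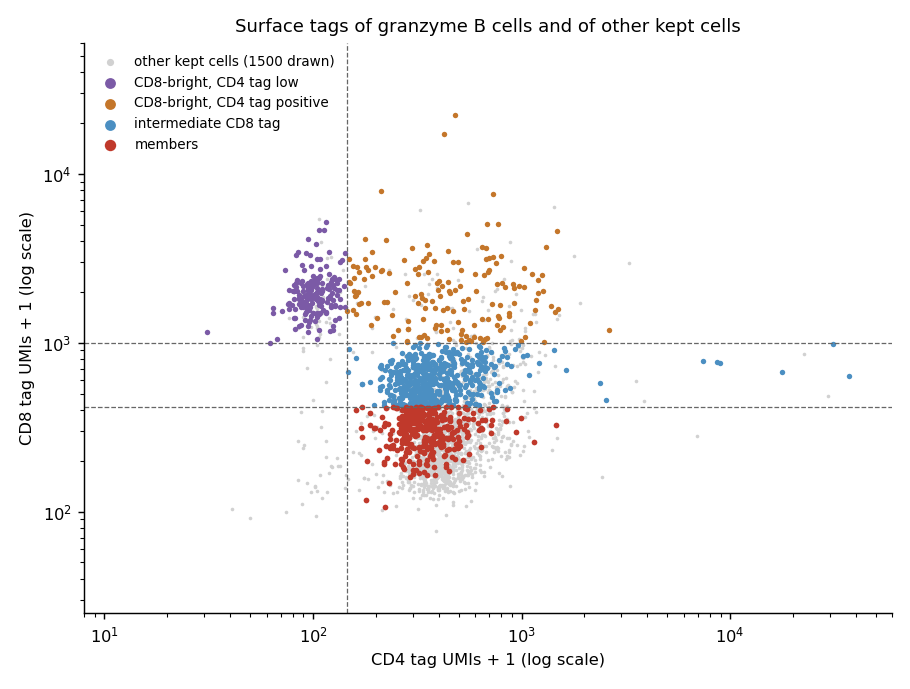
CD4 tag (x axis) and CD8 tag (y axis) of each cell, in UMIs plus 1 on log scales, with 1 point per cell and dashed lines at the limits of the groups. The 354 members lie below the lower horizontal line and run into the 536 intermediate cells without a gap, whereas the 181 CD8-bright CD4-low cells form a separate cloud.

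The upper CD8 tag limit cut through a continuous distribution. In the 20 tag counts up to and including the limit lay 41 members, and in the next 20 lay 40 intermediate cells. *CD8A* stood at 128 counts per 1000000 gene UMIs (CPM) in the former and 173 CPM in the latter, and *CX3CR1* at 239 and 292 CPM. The *GZMB* limit was crossed by few cells, with 9 members at 3 UMIs and 3 cells at 2 UMIs that otherwise met the rule. Most members lay far above it. *GZMB* had a median of 16 UMIs per member (3 to 68), with 18 members at 3 to 5 UMIs, 74 at 6 to 10 and 262 above 10.

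The cells carried RNA of most of the marker genes chosen for cytotoxic CD4 T cells. *GZMB*, which encodes granzyme B and was used by the rule, stood at 4532 CPM. *NKG7*, a granule membrane protein gene of cytotoxic cells, stood at 2433 CPM (2349 to 2518) with a UMI in 352 of 354 members. *CX3CR1*, the fractalkine receptor gene of effector lymphocytes, stood at 282 CPM (254 to 312) in 200 members, and *CMA1*, the gene of the serine protease chymase, at 118 CPM (99.8 to 138) in 115 members. In the granzyme-negative cells these values were 7.35 CPM for *NKG7*, 0.240 CPM for *CX3CR1* and 0.320 CPM for *CMA1*. After thinning each cell to 2200 gene UMIs, which left out 11 members, *CX3CR1* was found in 147 of 343 members (42.9%, against 56.5% unthinned) and in 1 of 103 B cells (0.971%, against 1.94% unthinned). *CMA1* was found in 84 of the thinned members (24.5%, against 32.5% unthinned) and in 0 of 103 B cells, where 3 cells with a UMI would be 2.91%. The B cells were the deeper of the pair, with a median of 4549 gene UMIs.

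The members also carried RNA of the CD4 lineage. *CD4* stood at 168 CPM (147 to 192) with a UMI in 162 members, *CD40LG*, the gene of CD40 ligand, at 90.3 CPM (74.8 to 108) in 93 members, and *ZBTB7B*, the gene of the CD4 lineage factor ThPOK, at 32.6 CPM in 41 members. In the CD8-bright CD4-low cells, *CD4* and *CD40LG* both had 0 UMIs in 181 cells, where 3 UMIs would be 4.72 CPM, and *ZBTB7B* stood at 14.2 CPM. Markers of other cells were near 0. Of 9 B cell genes 7 had no UMI and the list summed to 3.03 CPM, within 3.03 to 26.8 CPM over the 6 groups. Of 9 monocyte genes 6 had no UMI and the sum was 15.9 CPM (7.87 to 17.3 over the groups). The platelet list summed to 0.759 CPM (0 to 37.2 over the groups) and the erythroid list to 4.55 CPM (0 to 4.55), with *HBB* at 0 UMIs. The NK list summed to 433 CPM (287 to 876), of which *IL7R* (447 UMIs) and *KLRF1* (107 UMIs), which T cells express too, gave nearly all of the 571 UMIs and *TYROBP*, an adaptor gene of NK and myeloid cells, 17 UMIs in 9 members, whereas the NK genes *NCAM1*, *NCR1*, *KLRC1* and *SH2D1B* had 0 UMIs. The regulatory T cell list summed to 137 CPM (65.7 to 241), of which *TIGIT* gave 125 CPM.

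Members and intermediate CD8 tag cells were compared first, to see what besides the tag differed across the limit. Their RNA was close. A gene was counted with 50 or more UMIs in the pair of groups, if 10% or more of cells in the higher group held it. Of 4292 such genes 5 were at least 2-fold higher in the members (0.116% of genes) and 8 at least 2-fold lower (0.186%). At 1.5-fold, the counts were 46 higher (1.07%) and 73 lower (1.70%). Without cells above the 95th percentile of depth, 6 of 4147 were 2-fold higher and 5 lower.

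*CD8A*, the gene of the CD8α chain, was the clearest of the lower genes. It stood at 115 CPM (97.7 to 135) in the members and 263 CPM (242 to 285) in the intermediate cells, a log2 ratio of -1.19 (-1.46 to -0.93) or 2.28-fold lower. After thinning, *CD8A* was found in 81 of 343 members (23.6%, against 35.3% unthinned), in 241 of 523 intermediate cells (46.1%, against 64.7% unthinned), in 8.15% of granzyme-negative cells (10.7% unthinned) and in 1 of 103 B cells (0.971%, against 4.85% unthinned). The members thus lay between the granzyme-negative and the intermediate cells in CD8α RNA. *CD4* did not follow, at 168 CPM in the members and 161 CPM (145 to 179) in the intermediate cells, with a log2 ratio of 0.06 (-0.18 to 0.31).

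The RNA tracked the tag within the members as well. In the 180 members up to the median CD8 tag, *CD8A* had 59 UMIs (68.5 to 116 CPM), and in the 174 above it 93 UMIs (113 to 172 CPM). *CD4* stood at 169 and 168 CPM in these groups, *NKG7* at 2555 and 2312 CPM and *CX3CR1* at 285 and 279 CPM. Over 7 steps of CD8 tag through all CD4-tag-positive cells of the gene gate, *CD8A* went from 64.9 CPM (39.7 to 100) in the 87 cells with up to 250 tag UMIs to 768 CPM (695 to 846) in the 78 cells above 2000, in the same order as the steps. *CTSW*, the gene of the cathepsin W protease of CD8 T and NK cells, took another course. It stood between 11.2 and 17.2 CPM in the 5 steps up to 1000 tag UMIs, at 115 CPM (85.0 to 152) from 1000 to 2000 and at 202 CPM (165 to 244) above 2000.

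**Figure D2:**
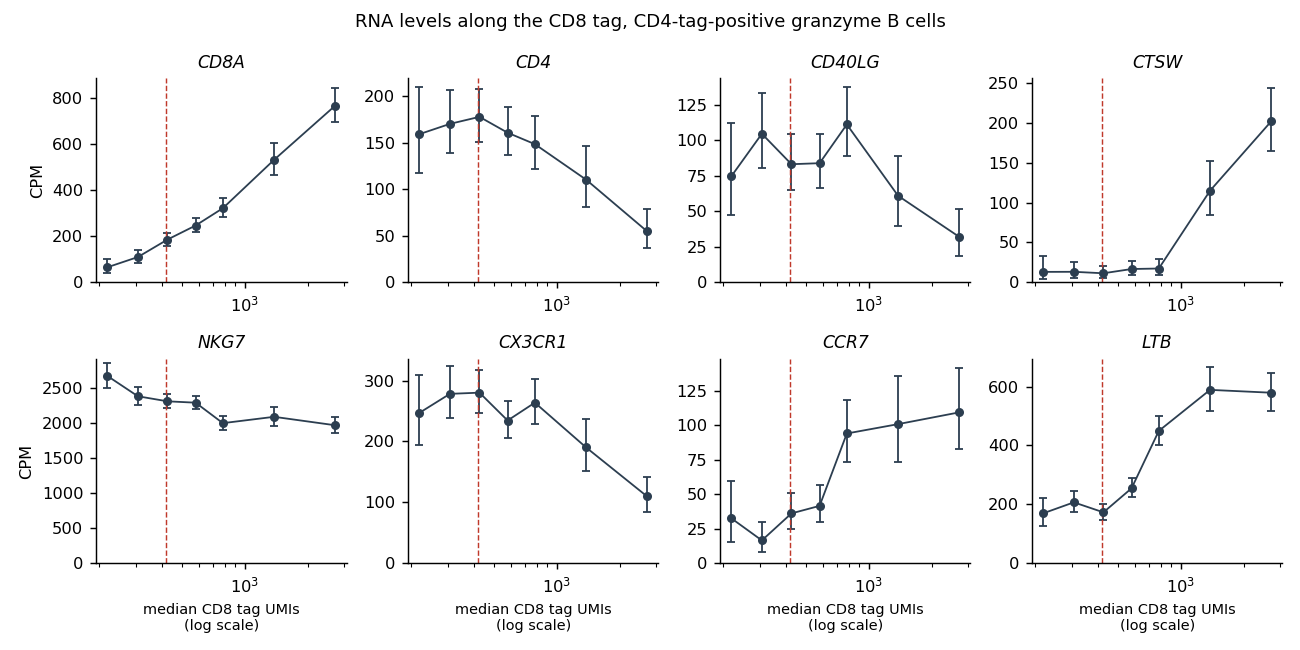
RNA level in CPM (y axes, from 0) of 8 genes against the median CD8 tag (x axes, log scale) in 7 steps of CD8 tag of the CD4-tag-positive granzyme B cells, with exact Poisson 95% intervals and a dashed line at the upper tag limit of the members. *CD8A* runs from 64.9 to 768 CPM in step with the tag, while *CTSW* stays at or below 17.2 CPM until the last 2 steps and *CD4* is lowest there.

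The other genes past 2-fold against the intermediate cells had few counts. Lower in the members were *SAMD9* (17 against 65 UMIs), *TRAV22* (28 against 100), *CASP10*, the gene of a caspase (21 against 75), *DAPK2* (26 against 90), *RNASE4* (19 against 65), *CCR7* (37 against 126) and *GCN1* (18 against 61), with log2 ratios between -1.19 and -1.02. Higher were *DMAP1* (71 against 52 UMIs), *ANGEL2* (45 against 33), *INTS4* (49 against 37) and *KDM5C* (38 against 31), with log2 ratios of 1.04 to 1.19, and a gene without a symbol, ENSMFAG00000006569, which stood at 224 CPM in the members and 86.0 CPM in the intermediate cells (log2 ratio 1.38). None of these intervals held 0, but the genes were picked by the 2-fold cut, so this largely follows from the choice and is no test. Several came near 0, as *GCN1* did at -1.86 to -0.24. The next in line among the lower genes were *TMUB2* and *DCTN6*, at log2 ratios of -0.91 and -0.88. Among the higher genes they were *TOMM70*, *ELK1*, *GABRA2*, *ATP10A* and *RFTN1*, at 0.78 to 0.95.

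**Figure D3:**
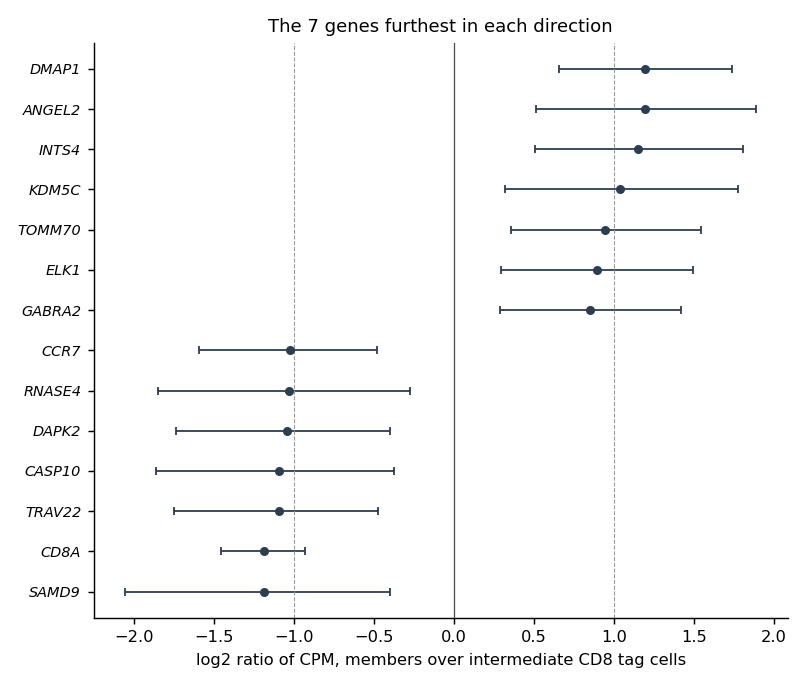
Log2 ratio of CPM of members over intermediate CD8 tag cells (x axis) for the 7 named genes furthest in each direction (y axis), with counting intervals at 95% and dashed lines at 2-fold. *CD8A*, at -1.19, has the narrowest interval.

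The killing genes differed little between the 2 groups. Of 16 counted genes of the cytotoxic granule list, 0 lay at 2-fold in either direction, 12 were above and 4 below a ratio of 1, and the median log2 ratio was 0.09, against 0.01 over all genes. *PRF1*, the gene of perforin, stood at 243 CPM in the members and 241 CPM in the intermediate cells, and *GNLY*, the gene of granulysin, at 213 CPM in both. *GZMA* stood at 115 and 108 CPM, the cystatin gene *CST7* at 1264 and 1145 CPM, *SRGN*, the gene of the granule proteoglycan serglycin, at 1771 and 1662 CPM, and *SERPINB9*, the gene of a granzyme B inhibitor, at 185 and 148 CPM. The 13 counted genes of effector and lineage transcription factors had a median of 0.04 and a range of -0.42 (*GATA3*) to 0.35 (*ZEB2*), with *TBX21* at 85.7 and 75.6 CPM. The effector surface list (13 genes, median 0.10), the killer lectin and NK receptor list (12 genes, median 0.14) and the memory S100, annexin and cytoskeleton list (17 genes, median 0.02) likewise had no gene at 2-fold. In the last of these *S100A4*, a calcium-binding protein gene high in memory T cells, stood at 7175 CPM in the members and 6651 CPM in the intermediate cells.

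The naive and central memory list was the one that leaned to the intermediate cells. Of 11 counted genes 7 were below and 4 above a ratio of 1, 1 was 2-fold lower, and the median log2 ratio was -0.25. *CCR7*, the lymph node homing receptor gene, stood at 28.1 CPM (19.8 to 38.7) in the members and 57.0 CPM (47.5 to 67.9) in the intermediate cells. After thinning it was found in 3.21% of members (1.61 to 5.67%) and 5.54% of intermediate cells (3.74 to 7.87%), with overlapping intervals. *SATB1*, the gene of a chromatin organiser, stood at 22.0 and 39.8 CPM, and *LTB*, the gene of lymphotoxin β, at 181 and 306 CPM (log2 ratio -0.75, -0.97 to -0.54). *IL7R* (339 and 338 CPM) and *CD27* (315 and 286 CPM) did not share this lean. Along the tag steps, *LTB* stood at 169 to 254 CPM up to 700 tag UMIs and at 449 CPM or more above, while the median depth went from 3424 gene UMIs in the lowest step to 3892 from 700 to 1000 and 6355 above 2000. Without cells above the 95th percentile of depth, the log2 ratios of members to intermediate cells were -1.09 for *CCR7* and -0.61 for *LTB*.

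The other lists showed no lean of that size. Median log2 ratios of members to intermediate cells were -0.05 for chemokines and cytokines (5 genes), -0.21 for chemokine receptors (3 genes), 0.20 for checkpoint receptors (3 genes), -0.06 for CD4 and CD8 lineage genes (8 genes, with *CD8A* at 2-fold), 0.06 for the T cell receptor complex (5 genes), 0.02 for proximal receptor signalling (16 genes), 0.07 for cytokine receptor chains (8 genes), 0.04 for immediate early genes (13 genes), -0.02 for interferon response genes (6 genes), 0.03 for the cell cycle (4 genes) and 0.10 for survival and death genes (9 genes). *CCL5*, a chemokine gene of effector T cells, stood at 1143 CPM in 292 members. *IFNG* had 45 UMIs in 38 members, *IL10* 17 UMIs in 13 members and *IL2* none. Interleukin-2 RNA was thus undetected in these untreated cells. Interferon γ RNA was found in 10.7% of members and 12.9% of intermediate cells, against 0.0731% of granzyme-negative cells. *CCL3* and *CCL4* were not analysed here.

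**Figure D4:**
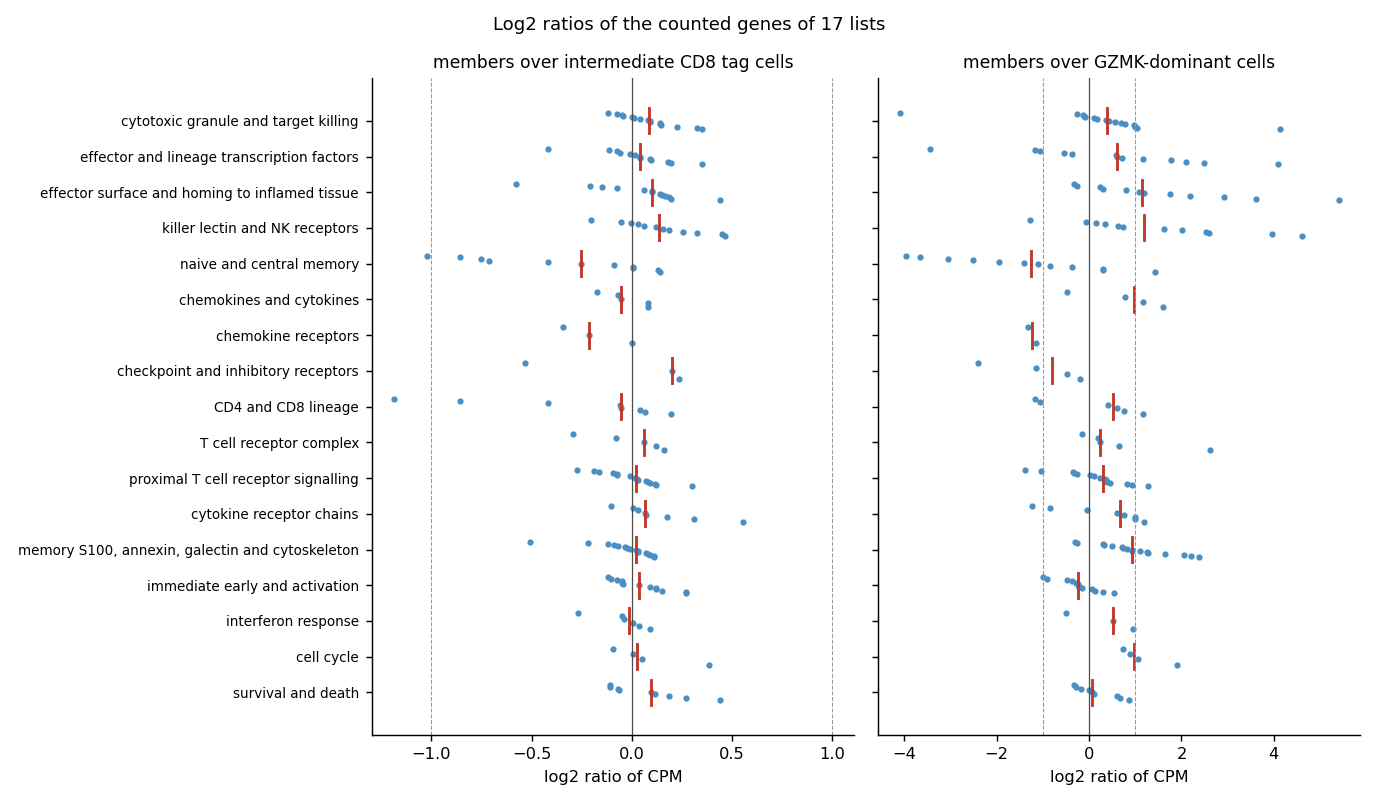
Log2 ratio of CPM (x axes) for the counted genes of 17 lists (y axis), 1 point per gene, with a red bar at the median of each list and dashed lines at 2-fold, for members over intermediate CD8 tag cells (left) and over GZMK-dominant cells (right). Against the intermediate cells only *CD8A* and *CCR7* of the listed genes pass 2-fold, whereas against the GZMK-dominant cells points reach 5.40 (*CX3CR1*).

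The CD8-bright CD4-positive cells differed more from the members. Of 4414 genes, 35 were at least 2-fold higher in the members (0.793%) and 40 at least 2-fold lower (0.906%). The bright cells were deeper, and without cells above the 95th percentile of depth the counts were 65 higher and 24 lower of 3838 genes. *CTSW* was the furthest named gene, at 11.4 CPM (6.37 to 18.8) in the members and 163 CPM (139 to 191) in the bright cells, 14.3-fold lower. It was also below the 73.9 CPM of the granzyme-negative cells. After thinning it was found in 7 of 343 members (2.04%, against 3.39% unthinned) and in 0 of 103 B cells, where 3 cells with a UMI would be 2.91%. *CD8A* was 5.75-fold lower in the members than in the bright cells, *TRAV22* 5.91-fold lower, *DPEP2* 3.81-fold lower and *CCR7* 3.76-fold lower. A gene without a symbol, ENSMFAG00000000257, was also lower in the members. It stood at 13.7 CPM in the members, 26.7 CPM in the intermediate cells, 433 CPM in the bright CD4-positive and 954 CPM in the bright CD4-low cells. It did not follow the CD8 tag throughout. After thinning it was found in 13.0% of the granzyme-negative cells, whose median tag was lower, against 1.75% of members.

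Higher in the members than in the bright CD4-positive cells were *COPRS*, *PDLIM7*, *TOR1A*, *USH1C* and *ACYP2*, with log2 ratios of at least 1.34 on 54 to 97 UMIs over both groups. *CD4* (79.5 CPM in the bright cells, 2.12-fold higher in the members) and *CD40LG* (45.0 CPM, 2.01-fold higher) were also past 2-fold. The killer receptor gene *KLRD1*, which encodes CD94, stood at 60.7 CPM in the members and 171 CPM in the bright cells. *LAG3*, a checkpoint receptor gene with too few UMIs to be counted, had 1 UMI in the members and 31 UMIs, or 32.4 CPM, in the bright cells. Of 13 counted naive and central memory genes 8 were 2-fold lower in the members, with a median log2 ratio of -1.58 against 0.06 over all genes. In the bright CD4-positive cells, which were deeper, *CCR7* was found in 32.5% of cells, against 6.78% of members. After thinning, the shares were 13.5% (8.66 to 19.7%) and 3.21% (1.61 to 5.67%). The CD8-bright CD4-low cells did not share this, with *CCR7* in 1.14% (0.139 to 4.07%) after thinning. The granule list had a median of 0.22 with *CTSW* as its 1 gene at 2-fold, and the perforin gene *PRF1* stood lower in the members, at 243 against 329 CPM.

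Within the members' own tag window, the GZMK-dominant cells were the nearest other cells with a granzyme. *GZMB* and *GZMK* defined these groups and are not a result. Of 3724 genes, 285 were at least 2-fold higher in the members (7.65%) and 78 at least 2-fold lower (2.09%). *CX3CR1* stood at 282 CPM in the members and 6.69 CPM, from 2 UMIs, in the GZMK-dominant cells. *HOPX*, the gene of an effector homeodomain factor, stood at 398 and 23.4 CPM, *CMA1* at 118 and 6.69 CPM and *KLRF1*, the gene of the NKp80 receptor, at 81.2 and 3.35 CPM, from 1 UMI. With so few UMIs in the second group the intervals were wide, at 3.53 to 8.45 for the log2 ratio of *CX3CR1* (5.40) and 2.09 to 9.92 for that of *KLRF1* (4.60). *JAKMIP2* (120 against 1 UMI), *HSD17B5* (109 against 1) and *ADAM8* (86 against 1) ran alike. *TSPAN2*, *ADGRG1* and *KLRD1* had 0 UMIs in the 87 GZMK-dominant cells, and set against 3 UMIs their log2 ratios were at least 3.60, 2.92 and 2.60.

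Lower in the members than in the GZMK-dominant cells were *CTSW* (17.1-fold), *CCR7* (15.5-fold), the costimulatory receptor gene *CD28* (12.6-fold), *TRBV9* (12.6-fold) and *EOMES*, the gene of a T-box factor (10.9-fold). *EOMES* stood at 22.8 CPM (15.4 to 32.5) in the members and 248 CPM (194 to 311) in the GZMK-dominant cells, whereas *TBX21*, the gene of the related factor T-bet, stood at 85.7 and 20.1 CPM. Of 13 counted transcription factor genes 5 were 2-fold higher and 3 lower (median 0.61). Of 12 effector surface genes 7 were higher (median 1.14), as were 6 of 12 killer receptor genes (median 1.19, with 1 lower) and 7 of 17 memory S100 and cytoskeleton genes (median 0.92). Of 12 naive and central memory genes 7 were lower and 1, *KLF3*, was higher (median -1.25), where the median over all genes was 0.12. Granule genes were mixed. Of 16, 2 were 2-fold higher (*CMA1* and *SERPINB9*) and 1 lower (*CTSW*), and *GNLY* stood at 213 and 231 CPM.

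The members varied in the same genes among themselves. Of 354 members 62 had a *GZMK* UMI. *EOMES* stood at 57.6 CPM in these and 14.9 CPM in the 292 without, *CX3CR1* at 181 and 305 CPM, and *NKG7* at 2268 and 2470 CPM. The 18 members with 3 to 5 *GZMB* UMIs had *CCL5* at 647 CPM and *LTB* at 473 CPM, against 1220 and 158 CPM in the 262 with more than 10.

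Against the granzyme-negative cells of the same tag window, 754 of 4076 genes were at least 2-fold higher in the members (18.5%) and 198 at least 2-fold lower (4.86%). These cells were separated on granzyme RNA, so that killing genes were higher follows the way the cells were chosen. The median log2 ratio over all genes was 0.35, and 12 of 16 granule genes, 11 of 12 killer receptor genes and 13 of 17 memory S100 and cytoskeleton genes were 2-fold higher. Of 14 naive and central memory genes 11 were 2-fold lower (median -3.12), with *CCR7* at 28.1 CPM in the members and 517 CPM in the granzyme-negative cells.

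T cell receptor RNA differed among the members themselves. Cells of 1 T cell clone share their rearranged α and β chains, and so their variable (V) segments. Many V segments of this animal have no symbol in the files, and a named TRBV segment was found in 46 of 354 members (13.0%) and a named TRAV segment in 103 (29.1%), against 781 and 2409 of the 4103 granzyme-negative cells. Among the 46, *TRBV28* was the segment with the most UMIs in 34 (73.9%, 58.9 to 85.7%). This rests on about 1 UMI per cell, with 37 UMIs in 34 members, against 378 UMIs in 120 granzyme-negative cells with the segment. Its share was 27 of 48 in the intermediate cells (56.2%, 41.2 to 70.5%) and 115 of 777 in the granzyme-negative cells (14.8%, 12.4 to 17.5%), where *TRBV19* was the commonest at 24.7%. The other TRBV segments of the members were *TRBV19* (6 cells), *TRBV10-1* (3), *TRBV9* (2) and *TRBV24-1* (1). Of TRAV segments *TRAV24* was found in 26 members, *TRAV10* and *TRAV22* in 17 each, *TRAV12-3* in 10 and *TRAV23DV6* in 8.

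Most members carried 1 of 3 genes without a symbol that hardly ever occurred together. These genes, and the segments set beside them, were chosen after their values were seen, and what the genes encode was not determined here. ENSMFAG00000006569 had a UMI in 117 members (33.1%, 28.2 to 38.2%; the first set), ENSMFAG00000040021 in 61 (17.2%, 13.4 to 21.6%, the second set) and another such gene in 37 (10.5%, 7.47 to 14.1%, the third set). At least 1 of the 3 was found in 213 members (60.2%, 54.9 to 65.3%), and only 2 members had more than 1. In the granzyme-negative cells the 3 genes were found in 2.95, 3.31 and 3.31% of cells, and 381 of 4103 cells (9.29%) had at least 1. In the GZMK-dominant cells 7 of 87 had at least 1.

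Some named V segments fell along the same lines. Of the 34 members with *TRBV28* 26 were in the first set, 0 in the second and 0 in the third. Of the 26 with *TRAV24* 11 were in the first set and 0 in the second or the third. Of the 17 with *TRAV10* 16 were in the second set and 0 in the first. Other segments marked none of the sets. Of the 17 members with *TRAV22* 0 were in any of the 3 sets, and of the 10 with *TRAV12-3* 1 was in the first and 0 in the others. One more gene without a symbol was found in 66 members, of which 57 were in the second set and 0 in the first or the third. *TRGV10*, a γ chain V segment gene that αβ T cells can also transcribe, was found in 90 members, of which 47 were in the first set, 21 in the third and 0 in the second. Its share of cells was 25.4% in the members and 0.487% in the granzyme-negative cells, or 15.5% and 0.436% after thinning, and 0.971% in the thinned B cells. The other granzyme B cells had it in like shares, unthinned. These were 25.9% of intermediate, 30.7% of CD8-bright CD4-positive and 21.5% of CD8-bright CD4-low cells.

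The same pairs recurred in the intermediate cells, which the rule kept apart from the members. Of 28 intermediate cells with *TRBV28* 20 were in the first set, and of 21 with *TRAV10* all 21 were in the second. At least 1 of the 3 genes was found in 303 of 536 intermediate cells (56.5%, 52.2 to 60.8%), in 47 of 163 CD8-bright CD4-positive cells (28.8%) and in 18 of 181 CD8-bright CD4-low cells (9.94%). The mix differed with the tag. The first set took 33.1% of members and 17.5% of intermediate cells, whereas the second took 17.2 and 22.4% and the third 10.5 and 17.7%. The gene of the first set was already named above as 2-fold higher in the members. Neither its larger share there nor the lower CD8 tag of its cells is thus a separate result. The intervals overlapped for the second set (13.4 to 21.6% and 18.9 to 26.2%) but not for the third (7.47 to 14.1% and 14.6 to 21.2%). Among CD4-tag-positive cells of the gene gate in 1 set alone, the median CD8 tag was 415 UMIs in the first set (225 cells, of which 51.1% were members), 489 in the second (185 cells, 31.9%), 567 in the third (143 cells, 25.9%) and 606 in the 490 cells with none (28.8%). The quartiles of the first and second sets overlapped, at 302 to 574 and 387 to 645 UMIs.

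**Figure D5:**
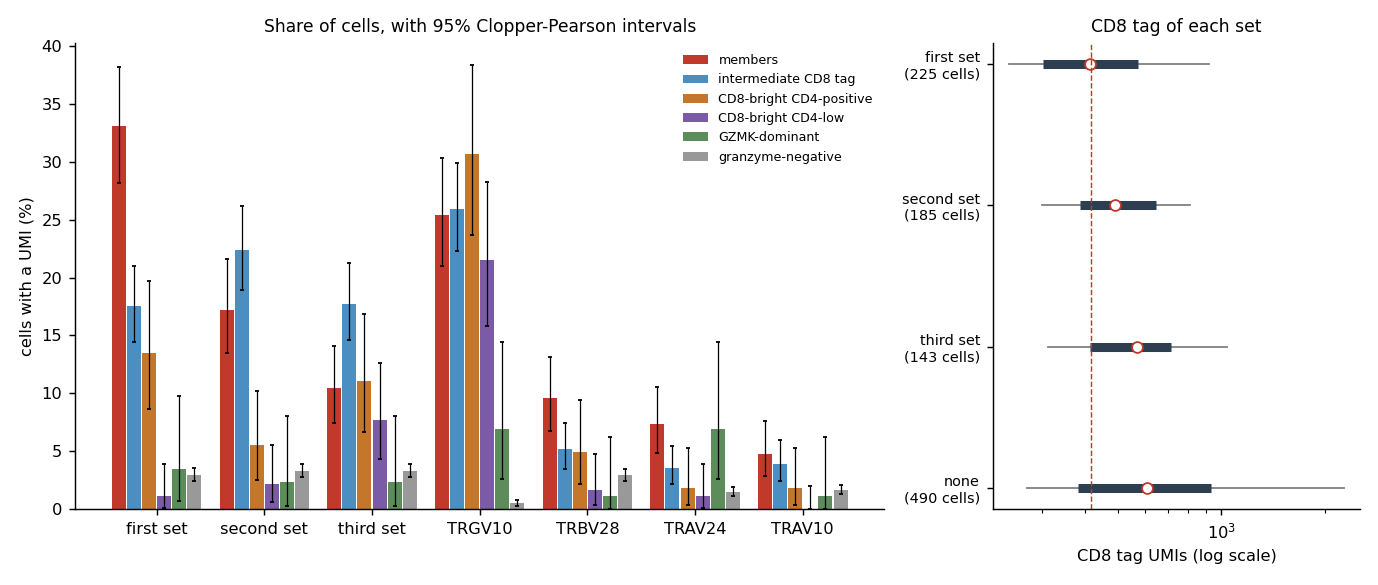
Left, share of cells with a UMI (y axis, percent, from 0) of the genes that mark the 3 sets and of 4 V segment genes, in 6 groups of cells, with 95% Clopper-Pearson intervals. Right, CD8 tag (x axis, UMIs on a log scale) of the CD4-tag-positive granzyme B cells in each set, with the median as a circle, quartiles as a thick bar, 10th to 90th percentile as a thin line and the upper tag limit of the members dashed. The first set is the largest among the members, at 33.1%, and has the lowest median tag, at 415. Its gene was among those 2-fold higher in the members than in the intermediate cells.

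Some killing genes stood at like levels in the 3 sets and others did not. *NKG7* stood at 2509 CPM in the 115 members of the first set alone, 2416 CPM in the 59 of the second and 2543 CPM in the 37 of the third, and *CMA1* at 125, 123 and 117 CPM. *GNLY* stood at 230 CPM (187 to 280) in the first, 136 CPM (92.1 to 195) in the second and 110 CPM (61.5 to 181) in the third, and in the intermediate cells of these sets at 214, 176 and 104 CPM. *PRF1* stood at 269, 232 and 147 CPM in the members and at 268, 245 and 180 CPM in the intermediate cells, with overlapping intervals between the first and second sets on both sides. *GNLY* and *PRF1* thus had their lowest values in the third set in both groups of cells, although the intervals of the second and the third overlapped in the members. *GZMA* ordered the first and second sets differently in the 2 groups, at 97.5, 146 and 58.6 CPM in the members and 203, 115 and 46.4 CPM in the intermediate cells. *KLRD1* stood at 104 CPM (76.2 to 140) in the first and 13.6 CPM (2.81 to 39.9), from 3 UMIs, in the second, and in the intermediate cells at 117 and 28.3 CPM, so that it was higher in the first set than in the second on both sides of the tag limit. *GZMK*, whose level the rule limits to that of *GZMB*, stood at 69.6, 605 and 0 CPM in the members of the 3 sets and is given as a description.

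Over all 1714 genes counted between the first and second sets of the members, with V segments and the marking genes left out, 14 were at least 2-fold higher and 5 lower in the first set. Of these, 10 and 3 lay on the same side of a ratio of 1 in the intermediate cells. The share of all 1714 genes that did so was not determined, so these counts are only a description. At 2-fold there too were 2 and 1. The named genes among the last were *HSD17B5*, with log2 ratios of 1.97 in the members and 2.65 in the intermediate cells, *STMN1*, the gene of the microtubule regulator stathmin, with 1.08 and 1.26, and *CD247*, the gene of the receptor ζ chain, with -1.24 and -1.09. *STMN1* had a UMI in like shares of the members of both sets, 32.2% in the first and 33.9% in the second. In the intermediate cells these shares were 43.3 and 29.1%.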

How the data were processed

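The authors deposited a 5′ gene library and a CD4 and CD8 tag library as UMI counts, in whole numbers and not normalized. The submitters' processing notes name Cell Ranger 3.1.0, STAR 2.5.1b and Seurat 3.1.3. No genome was used here. Of 29324 gene rows 7899 have no symbol, and 35 listed symbols were not among the rest and were not analysed here. Kept cells had 200 to 4000 genes and no more than 20% of UMIs in 13 mitochondrial genes, and were not clustered. No doublet caller was run, and deep cells were left out in an alternative. B cells had at least 3 *CD79A* UMIs and no more than 1 UMI in total of the CD3 genes and *TRAC*.

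Group sums of UMIs are given as counts per 1000000 gene UMIs with exact Poisson intervals, and shares with Clopper-Pearson intervals, at 95%, in Python 3.11.15 with numpy 2.4.6 and scipy 1.17.1. The interval of a ratio comes from the binomial split of its UMIs between both groups. Gate genes were left out of gene counts, and a group at 0 was set to 3 UMIs. The functions were tested on simulated data. Named were the markers and gate genes, up to 6 genes per list, the 10 symbols furthest in each direction against intermediate cells and 5 against the other 2 main groups, and the 5 commonest TRAV and TRBV segments. Some genes that this rule names are not reported here. *TRGV10*, genes without a symbol and those that differ between sets were chosen after their values were seen. The members, lists and tests were chosen with earlier results of these data known.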

Additional observations from a re-analysis of the deposited data

How the results depend on the processing

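With 1 library of 1 animal, no interval covers differences between animals, and at these depths genes under about 50 UMIs could not be compared. Of 102 values under alternatives, 71 stayed within 1.5 times (counts) or within the interval (ratios and shares), and 31 did not. Among the 71, the *CD4* log2 ratio to intermediate cells went from 0.06 to -0.06 with a CD8 tag limit of 209 UMIs. Its interval as reported held 0. With a CD8 tag limit of 209 UMIs, which left 36 members, the genes 2-fold higher and lower were 108 and 326 of 4372 counted against intermediate cells. Against GZMK-dominant cells they were 52 and 6 of only 395 counted genes, where 3724 were counted as reported. Against bright CD4-positive cells 163 of 2654 were lower. At this limit the *CD8A* log2 ratio to intermediate cells was -4.02. The *TRBV28* share was 100%, but of only 2 cells with a named TRBV segment. The thinned shares with *CX3CR1*, *CMA1* and *CD8A* were 33.3, 36.4 and 3.03% of 33 cells. With at least 20 UMIs and no share minimum, genes higher and lower were 81 and 138 of 8059 against intermediate cells. They were 157 and 183 of 7271 against bright cells and 693 and 265 of 6361 against GZMK-dominant cells. With at least 200 UMIs they were, in the same order, 1 and 1 of 2253, 7 and 8 of 1455, and 61 and 9 of 1030. Without cells above the 95th percentile of gene UMIs, 5 of 4147 genes were lower against intermediate cells. Of 3838 genes, 65 were then higher and 24 lower against bright cells. Without thinning, the shares were 56.5, 32.5 and 35.3%. In alternatives chosen after seeing the data, members with more than 1 of the 3 genes without a symbol numbered 1 with at least 2 UMIs of each and 1 without the deepest cells, and members with at least 1 of them 170 and 205. The cause of these differences was not tested. No paired analysis was possible because the 2 libraries are genes and tags of the same cells and no group has a replicate number.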
